A study of Homo sapiens with 9 samples.

Results

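Mitophagy receptors and adaptors are the proteins that mark a mitochondrion for destruction and tie it to the growing autophagosome. The set held 10 genes picked by name (BNIP3, BNIP3L, SPATA18, PINK1, FUNDC1, BCL2L13, FKBP8, OPTN, SQSTM1 and TBK1), out of 24542 genes and loci in the count table, and all 10 were found and passed the filter on low counts. RNA was sequenced from A2780, a cell line from a human ovarian carcinoma, labelled as wild type. The control group received 0.5% DMSO, a solvent, for 96 h. No DMSO share is recorded for the groups that received a drug. A group received cisplatin, a platinum drug that crosslinks DNA, at 0.6 µM for 96 h, and another received Pt-ttpy, a platinum compound named in the title of the series as a G-quadruplex binder with effects on mitochondria, at 5.5 µM for 96 h. The labels write cisplatin as "Cispt" and put both drugs at their IC80, so the drugs were compared at doses of similar toxicity and not at equal concentration. Each group had 3 libraries, named below by group and replicate number, and all came from 1 cell line. The labels call the libraries biological replicates, and nothing else says that they were separate cultures. If they were not, the p-values measure only the spread between these samples.

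Mitophagy is the removal of whole mitochondria by autophagy. In the ubiquitin route, the kinase PINK1 builds up on mitochondria that have lost their membrane potential and marks them, through phosphorylated ubiquitin, for ubiquitin chains to be built on their surface. The adaptors OPTN and SQSTM1 then bind the ubiquitin chains on one side and ATG8 proteins of the autophagosome (the LC3 and GABARAP proteins) on the other, and the kinase TBK1 phosphorylates both adaptors. In the receptor route, BNIP3, BNIP3L, FUNDC1, BCL2L13 and FKBP8 sit in the outer mitochondrial membrane and bind ATG8 proteins directly. BNIP3 and BNIP3L are known targets of the hypoxia-inducible factors, and SPATA18, also called Mieap, acts in mitochondrial quality control. The counts measure mRNA, so they show the supply of these transcripts and not the rate of mitophagy.

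The sequence before the start of transcription is shown for 4 genes, because their windows hold, or lack, the patterns searched for. RefSeq windows (GRCh38.p14, 250 bases before to 50 after the start) were matched for 7 of the 10 genes, with 12 windows in all, several of which overlap within a gene. BNIP3L, PINK1 and FKBP8 were not matched. Capitals in the BNIP3 sequence mark a G-quadruplex pattern on the opposite strand (4 runs of at least 3 G with loops of 1 to 7 bases) and, further on, CACGTG, which holds the hypoxia response element core ACGTG on both strands. In the OPTN sequence capitals mark the G-quadruplex pattern, in the TBK1 sequence CACGTG, and the SPATA18 sequence holds none of the patterns. Each is written 5′ to 3′ on the strand of its gene: BNIP3 at chr10:131982014-131982173 (minus strand), SPATA18 at chr4:52051054-52051303 (plus), OPTN at chr10:13099959-13100081 (plus) and TBK1 at chr12:64452077-64452106 (plus).
BNIP3: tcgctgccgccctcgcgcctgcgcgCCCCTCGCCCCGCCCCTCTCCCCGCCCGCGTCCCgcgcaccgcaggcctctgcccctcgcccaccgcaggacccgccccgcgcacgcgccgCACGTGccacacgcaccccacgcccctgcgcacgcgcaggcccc
SPATA18: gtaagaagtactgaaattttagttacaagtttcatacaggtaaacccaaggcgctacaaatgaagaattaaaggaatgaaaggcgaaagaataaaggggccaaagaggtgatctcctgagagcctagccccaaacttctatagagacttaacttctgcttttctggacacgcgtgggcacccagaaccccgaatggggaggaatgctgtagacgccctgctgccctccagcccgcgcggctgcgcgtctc
OPTN: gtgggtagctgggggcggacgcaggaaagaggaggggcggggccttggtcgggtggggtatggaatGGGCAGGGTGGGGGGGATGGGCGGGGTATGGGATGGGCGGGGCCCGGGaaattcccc
TBK1: ccggccgtcggtCACGTGgcctccggccag

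The ACGTG core lay in the windows of BNIP3 and TBK1, which makes 2 of the 12 windows, against 21.4% of all 35116 promoter windows. In BNIP3 it began 133 bases before the start on the gene's own strand, and in TBK1 30 bases before it. The G-quadruplex pattern lay in 8 of the 12 windows, from 5 of the 7 matched genes (BCL2L13, BNIP3, FUNDC1, OPTN and SQSTM1), against 25% of all windows. In BCL2L13 and in OPTN overlapping windows hold the same matched stretch, so the 8 windows are not separate matches. The share of all windows is per window and not per gene. The antioxidant response element core TGACNNNGC (13.3% of all windows) and TCACGTGA, the core of the CLEAR element bound by lysosomal transcription factors (0.98%; it contains ACGTG), were in 0 of the 12. Both strands were searched. A match describes the letters only, and no match says only that these letters are not in the window. TBK1 did not carry the G-quadruplex pattern, and SPATA18 carried none of the patterns in its window. Any relation of the patterns to the changes given below was not tested.

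Library totals ran from 31.3 to 40.8 M counts, and the counts of the 10 genes from 171 (SPATA18 in DMSO 1) to 14506 (FKBP8 in cisplatin 2). DMSO 2 and cisplatin 2 stood apart: transcripts rich in GC had more counts there (Spearman rho of 0.541 and 0.429 between GC content and a gene's log2 level relative to its average in the 9 libraries, over 13383 genes), whereas rho was -0.364 to -0.183 for the remaining 7. The share of counts from mitochondrial DNA ran from 0.756% in cisplatin 2 to 4.21% in cisplatin 1. Epithelial markers of ovarian carcinoma were low in all groups (KRT7 at 0, and group means of at most 0.226 CPM for PAX8 and 0.0474 for MUC16). KRT8 was at 0.056 CPM with DMSO, 1.48 with cisplatin and 0.49 with Pt-ttpy, and EPCAM at 0.085, 0.81 and 0.23, and both were called higher after cisplatin (adjusted p = 0.00786 and 0.0338 by edgeR). They were the 2 of 5 tested genes of that list called after cisplatin, where limma-voom called only 1 and DESeq2 3, all higher. After Pt-ttpy 0 were called by edgeR or limma-voom and 1 (higher) by DESeq2 and at an unadjusted p under 0.05. The mesenchymal gene VIM had group means of 5336 to 7046 CPM. Leukocyte markers summed to between 3.47 and 5.87 CPM per library. Fibroblast markers, led by COL3A1, DCN and LUM, summed to 1101 to 1208 CPM with DMSO, 1754 to 1999 with cisplatin and 1830 to 1912 with Pt-ttpy. After either drug 5 of their 9 tested genes were higher than with DMSO and 0 lower, with FAP at 0 in all libraries. Their part in the results below was not tested. CPM here are counts per M counts of a library, its size adjusted with TMM factors (trimmed mean of M values).

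The comparison of Pt-ttpy with DMSO, which the series design sets up to find genes that respond to Pt-ttpy, showed a change in 4 of the 10 mitophagy genes. BNIP3, BNIP3L and SPATA18 rose and SQSTM1 fell (adjusted p under 0.05 by edgeR's quasi-likelihood F test, over all 15558 genes tested). The same test called 12% of all genes, 5.59% higher and 6.45% lower. The values of the groups did not overlap for 5 of the 10 genes, against 40.9% of all genes, and 5 had an unadjusted p under 0.05, against 29.8%. The median log2 change of the 10 genes was 0.14, and that of all genes 0.03. After cisplatin 3 of the 10 genes rose against DMSO (SPATA18, BNIP3L and OPTN) and 0 fell. That test called 20.5% of all genes, 10.7% higher and 9.78% lower. The groups did not overlap for 3 of the 10 genes, against 38% of all genes, and 4 had an unadjusted p under 0.05, all higher, against 35.1%. By DESeq2 and by limma-voom 0 fell as well. The median was 0.15 against 0.01 for all genes. Both comparisons use the same DMSO libraries, so their values are given side by side and not set against each other. In bulk RNA, fewer cells of a type and less RNA per cell cannot be told apart.

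Between the drugs, SPATA18 was the 1 gene of the 10 that differed, lower with Pt-ttpy than with cisplatin, where 0.514% of all genes were called (0.0578% higher and 0.456% lower). The groups did not overlap for 6 of the 10 genes (BNIP3, BNIP3L, SPATA18, PINK1, OPTN and SQSTM1), against 20.6% of all genes, and 5 had an unadjusted p under 0.05, against 8.06%. The division of all called genes between rises and falls moved with the scaling. For Pt-ttpy against DMSO it was 870 higher and 1004 lower with TMM, 1050 and 666 with upper-quartile factors, and 1005 and 773 with library totals. For cisplatin it was 1669 and 1521, 1940 and 913, and 1995 and 943 in the same order. The counts of the 10 genes called against DMSO, 3 higher and 1 lower for Pt-ttpy and 3 higher for cisplatin, were the same under the 3 scalings.

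**Figure D1:**
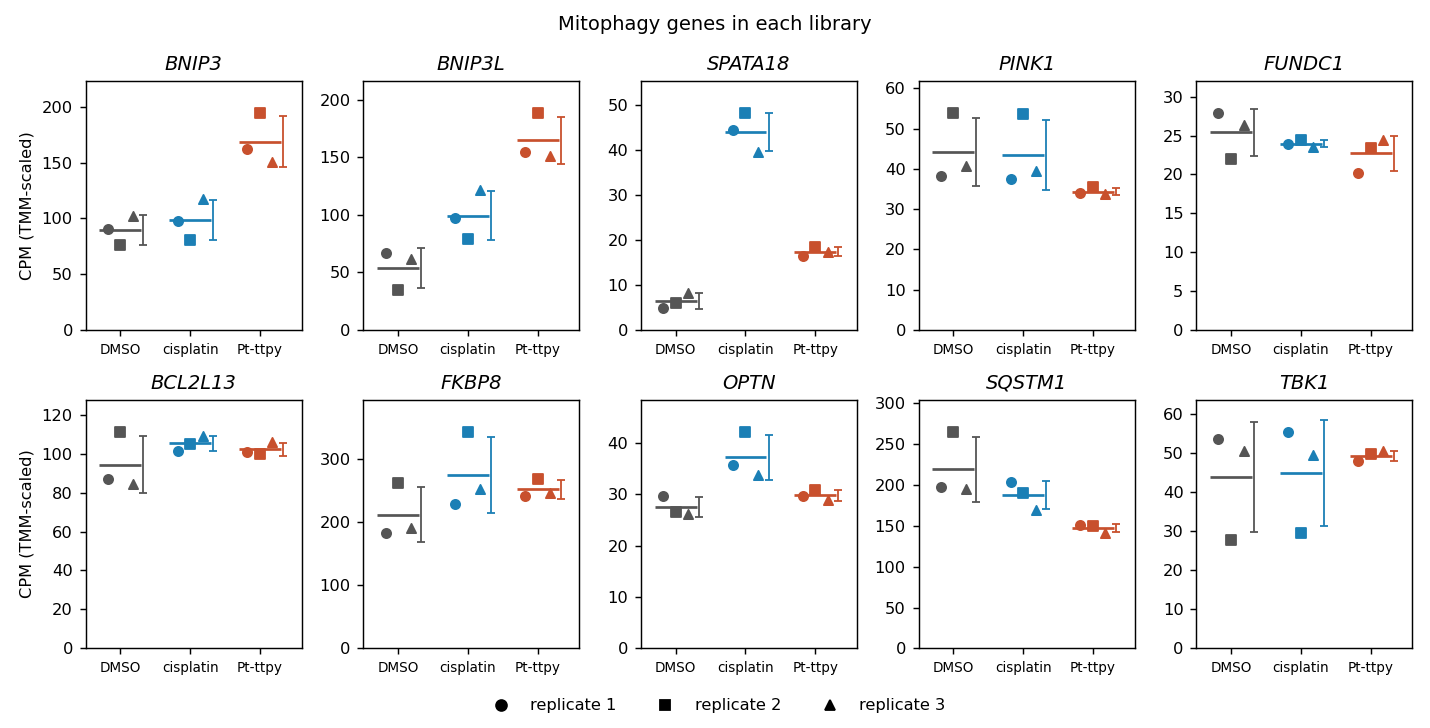
Level of each mitophagy gene in CPM (TMM-scaled, linear axis from 0) in the 3 libraries of each group. Points are libraries, with the shape giving the replicate number, horizontal lines are group means and vertical bars SD (n = 3). All 3 Pt-ttpy libraries lie above all others for BNIP3 and BNIP3L, all 3 cisplatin libraries lie highest for SPATA18, and replicate 2 lies lowest for TBK1 in the DMSO and cisplatin groups.

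**Figure D2:**
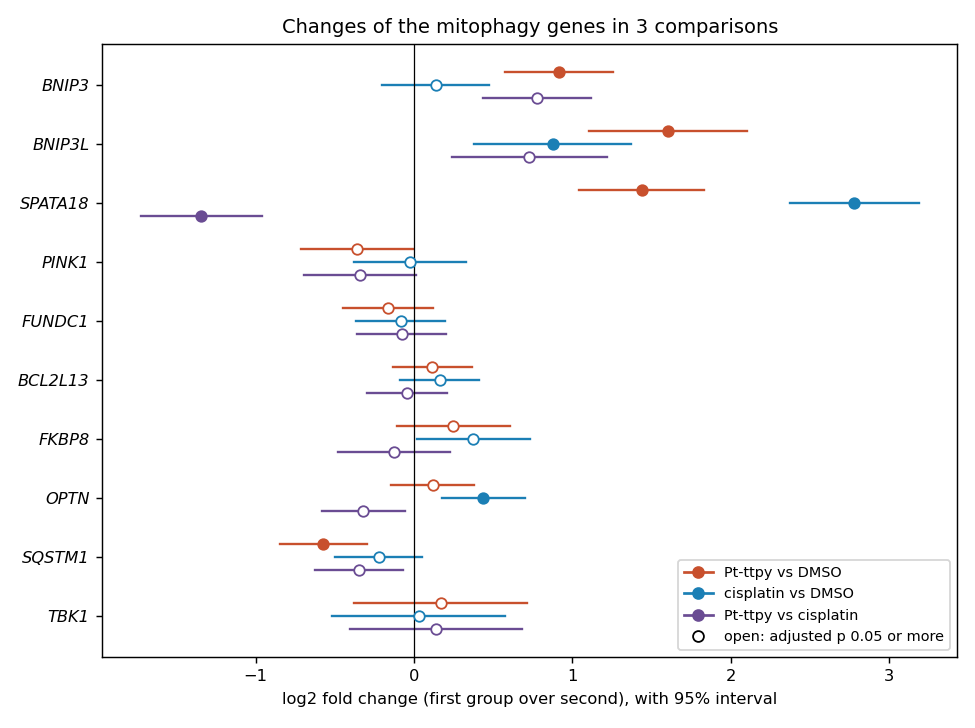
Fitted log2 fold change of each mitophagy gene in the 3 comparisons (horizontal axis, first group over second), with 95% intervals from edgeR. Filled points passed an adjusted p of 0.05, and 8 of the 30 points are filled.

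BNIP3, an outer-membrane receptor of the BCL2 family, rose with Pt-ttpy and not detectably with cisplatin. Its levels were 90.8, 76.0 and 102 CPM in DMSO 1, 2 and 3, 97.8, 81.0 and 117 CPM in cisplatin 1, 2 and 3, and 162, 194 and 150 CPM in Pt-ttpy 1, 2 and 3. The Pt-ttpy libraries were thus all above the other 6, and the cisplatin and DMSO libraries overlapped. The mean went from 89.6 ± 13.1 CPM with DMSO to 169 ± 22.7 with Pt-ttpy (SD, n = 3), a log2 change of 0.91 (SE 0.16, adjusted p = 0.00835 by edgeR). Cisplatin gave 98.6 ± 18.0 CPM and a log2 difference of 0.14 with a 95% interval from -0.20 to 0.48 (adjusted p = 0.565). Directly between the drugs the log2 difference was 0.78 (SE 0.16), and its adjusted p of 0.0576 missed the threshold in spite of an unadjusted p of 0.000318. With DESeq2's Wald test this difference passed (adjusted p = 0.000575), as it did without a filter on low counts (0.0207), with a stricter filter (0.049), with upper-quartile factors (0.0488), with the replicate block (0.0239), without DMSO 2 (0.0367) and without cisplatin 3 (0.0398). In the other settings it did not pass, with 0.0541 by limma-voom, 0.0717 with library totals, 0.0784 with the 6 libraries of the 2 drugs, 0.054 after GC correction, and up to 0.297 (without Pt-ttpy 2) with 1 library left out. In all it passed in 7 of 22 alternatives. Without Pt-ttpy 2, its highest library, the adjusted p against DMSO was 0.0511. BNIP3 (ENSG00000176171) lies on chromosome 10, 131966455 to 131982013, minus strand (GRCh38, GENCODE 29). GENCODE 29 names 39 pseudogenes after BNIP3, of which 0 are in the count table, so reads that fit both could have been counted to BNIP3 or lost.

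BNIP3L, the close relative of BNIP3 also called NIX and best known for clearing mitochondria from maturing red cells, rose with both drugs. It was at 66.7, 34.3 and 61.4 CPM with DMSO, at 97.1, 78.9 and 122 CPM with cisplatin and at 154, 188 and 151 CPM with Pt-ttpy, each in the order of replicates 1, 2 and 3. The 3 groups did not overlap, and DMSO 2 was the lowest library. The rise with Pt-ttpy was the largest among the 10 genes in that comparison when all 9 libraries were fitted. Means were 54.1 ± 17.4 CPM for DMSO and 164 ± 20.3 for Pt-ttpy (SD, n = 3), a log2 change of 1.60 (SE 0.23, adjusted p = 0.0045). Without DMSO 2 the log2 change of BNIP3L was 1.365 and that of SPATA18 was 1.405, so SPATA18 rose more in that fit. With cisplatin the mean was 99.3 ± 21.5 CPM (log2 0.88, SE 0.23, adjusted p = 0.0203), and this call was lost without cisplatin 3 (0.065) and in a fit of only the 6 DMSO and cisplatin libraries (0.0517), but not in that fit with the replicate number as a block (0.00697). Between the drugs the log2 difference of 0.73 (95% interval 0.24 to 1.22) had an adjusted p of 0.305. It passed only after a correction for GC content (0.0494), chosen after the data were seen. BNIP3L (ENSG00000104765) lies on chromosome 8, 26382898 to 26505636, plus strand, and 7.66% of its exon bases lie opposite exons of PNMA2. Whether the counting used strand is not given in the sources used here, so reads of such neighbours cannot be told apart. PNMA2, named here for this overlap, was at 11.5 to 13.0 CPM with DMSO and rose with both drugs (log2 1.28 with Pt-ttpy, adjusted p = 0.00448, and 0.99 with cisplatin, adjusted p = 0.0052).

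The other outer-membrane receptors did not pass the test in any of the 3 comparisons. FUNDC1, a receptor that responds to low oxygen through its phosphorylation, was at 27.9, 22.1 and 26.4 CPM with DMSO, 23.9, 24.4 and 23.6 CPM with cisplatin and 20.2, 23.4 and 24.5 CPM with Pt-ttpy, so that all 3 groups overlapped. Its log2 difference from DMSO was -0.16 with Pt-ttpy (95% interval -0.45 to 0.12, adjusted p = 0.431) and -0.09 with cisplatin (-0.37 to 0.20, adjusted p = 0.679). BCL2L13, the mammalian counterpart of the yeast receptor Atg32, was at 87.2, 111 and 84.4 CPM with DMSO, 102, 105 and 109 CPM with cisplatin and 101, 99.6 and 106 CPM with Pt-ttpy. DMSO 2 was its highest library, and DMSO 1 and 3 its lowest. Its log2 difference from DMSO was 0.12 with Pt-ttpy (95% interval -0.13 to 0.37) and 0.16 with cisplatin (-0.09 to 0.41). In a fit of 7 libraries, without DMSO 2 and cisplatin 2, both differences passed (0.26, adjusted p = 0.00254, and 0.30, adjusted p = 0.00157), and without DMSO 2 alone that with cisplatin passed (0.30, adjusted p = 0.0253).

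FKBP8, an outer-membrane immunophilin that binds BCL2 and LC3, had the most counts per kilobase of the 10 genes. It was at 184, 262 and 191 CPM with DMSO, 229, 344 and 254 CPM with cisplatin and 242, 269 and 247 CPM with Pt-ttpy. Replicate 2 was the highest library in each group, and DMSO 2 lay within the range of both drug groups while DMSO 1 and 3 lay below. Against DMSO the log2 difference was 0.37 with cisplatin (SE 0.16, adjusted p = 0.124) and 0.25 with Pt-ttpy (SE 0.16, adjusted p = 0.336). With the replicate number as a block, which assumes that the numbers mark pairs, the cisplatin difference passed (log2 0.37, adjusted p = 0.0223). It also passed without DMSO 2 (0.56, adjusted p = 0.0298). Without DMSO 2 and cisplatin 2 both differences passed (0.37 with cisplatin, adjusted p = 0.000197, and 0.43 with Pt-ttpy, adjusted p = 1.49e-05). After GC correction they were 0.27 (adjusted p = 0.0283) and 0.30 (0.0246). FKBP8 (ENSG00000105701; chromosome 19, 18531751 to 18544077, minus strand) had the highest transcript GC content of the 10 genes, 66.6%.

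SPATA18, the quality control gene, rose with both drugs and more with cisplatin. Its levels were 4.81, 6.07 and 8.29 CPM in DMSO 1, 2 and 3, 44.4, 48.1 and 39.6 CPM in the cisplatin libraries and 16.4, 18.4 and 17.2 CPM in the Pt-ttpy libraries. The 3 groups stood in separate ranges. Cisplatin raised the mean from 6.39 ± 1.76 to 44.0 ± 4.26 CPM (SD, n = 3), which is 6.88-fold (log2 2.78, SE 0.19, adjusted p = 8.12e-06). Pt-ttpy raised it to 17.4 ± 0.98 CPM, 2.71-fold (log2 1.44, SE 0.18, adjusted p = 0.00252). The level with Pt-ttpy was 0.39 times that with cisplatin (log2 -1.34, SE 0.18, adjusted p = 0.00506), and this call between the drugs was lost without Pt-ttpy 1 (0.0582) or Pt-ttpy 3 (0.0611). Both calls against DMSO held with any 1 library left out. SPATA18 (ENSG00000163071) lies on chromosome 4, 52051331 to 52097292, plus strand, and its exons overlap no other gene in GENCODE 29.

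PINK1, the kinase that starts the ubiquitin route, did not pass the test in any comparison. It was at 38.2, 53.7 and 40.7 CPM with DMSO, 37.5, 53.6 and 39.3 CPM with cisplatin and 34, 35.4 and 33.8 CPM with Pt-ttpy. All Pt-ttpy libraries lay below the other 6, and DMSO 2 and cisplatin 2 lay above the rest of their groups. The log2 difference with Pt-ttpy was -0.36 (95% interval -0.72 to -0.01, adjusted p = 0.158), and with cisplatin -0.02 (-0.38 to 0.33, adjusted p = 0.935). PINK1 (ENSG00000158828; chromosome 1, 20633455 to 20651511, plus strand) shares 39.4% of its exon bases with the antisense gene PINK1-AS, which has no row in the count table. How many reads of PINK1-AS were counted to PINK1, if any, was not measured.

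Of the ubiquitin-binding adaptors, OPTN rose with cisplatin and SQSTM1 fell with Pt-ttpy. OPTN, the adaptor optineurin, was at 29.7, 26.6 and 26.1 CPM with DMSO, 35.6, 42.1 and 33.7 CPM with cisplatin and 29.7, 30.8 and 28.8 CPM with Pt-ttpy. The cisplatin libraries were above all others, while Pt-ttpy overlapped DMSO. Its mean was 27.4 ± 1.95 CPM with DMSO and 37.1 ± 4.37 with cisplatin (SD, n = 3), a log2 change of 0.44 (SE 0.12, adjusted p = 0.0261). The call was lost without DMSO 3 (0.087), without cisplatin 2 (0.0699) and in the fit of only 6 libraries (0.0831), but not in the latter with the replicate block (0.0349). With Pt-ttpy the log2 difference was 0.12 (95% interval -0.15 to 0.38, adjusted p = 0.556). Between the drugs it was -0.32 (95% interval -0.58 to -0.06), with Pt-ttpy the lower, and did not pass (adjusted p = 0.486). OPTN (ENSG00000123240; chromosome 10, 13099449 to 13138308, plus strand) shares 2.86% of its exon bases with CCDC3 on the opposite strand.

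SQSTM1, which encodes the adaptor p62 that is itself degraded by autophagy, was at 198, 265 and 195 CPM with DMSO, 204, 190 and 169 CPM with cisplatin and 151, 150 and 141 CPM with Pt-ttpy. The Pt-ttpy libraries were below all others, and cisplatin and DMSO overlapped. With Pt-ttpy the mean was 147 ± 5.33 CPM against 219 ± 39.7 with DMSO (SD, n = 3), so that SQSTM1 fell by 0.57 on the log2 scale (SE 0.13, adjusted p = 0.0184). The call was lost with any 1 of the 3 Pt-ttpy libraries left out (adjusted p = 0.0751, 0.0806 and 0.0781 without Pt-ttpy 1, 2 and 3), while the log2 change stayed between -0.59 and -0.54 in these fits. Leaving out DMSO 2, the highest library for SQSTM1, made the fall smaller, at -0.41, and it was still called (adjusted p = 0.0253 by edgeR). With cisplatin the log2 difference was -0.22 (95% interval -0.50 to 0.05, adjusted p = 0.229), and between the drugs -0.35 (adjusted p = 0.449, and 0.00558 without DMSO 2 and cisplatin 2). SQSTM1 (ENSG00000161011; chromosome 5, 179806398 to 179838078, plus strand) shares 20.7% of its exon bases with MRNIP on the opposite strand, a DNA repair gene in the count table. MRNIP, named for this overlap, was at 14.7 to 17.1 CPM with DMSO and 17.5 to 28.5 CPM with Pt-ttpy (log2 difference 0.52, adjusted p = 0.088).

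TBK1, the kinase that phosphorylates both adaptors, did not pass the test in any comparison and had a wide spread. It was at 53.5, 27.8 and 50.4 CPM with DMSO, 55.3, 29.6 and 49.6 CPM with cisplatin and 47.9, 49.6 and 50.3 CPM with Pt-ttpy. Apart from DMSO 2 and cisplatin 2, all libraries lay between 47.9 and 55.3 CPM. The log2 difference from DMSO was 0.17 with Pt-ttpy (95% interval -0.38 to 0.71, adjusted p = 0.696) and -0.07 without DMSO 2. With cisplatin it was 0.03 (-0.51 to 0.57, adjusted p = 0.948), and its sign changed with the library left out. An antisense transcript lies opposite 14.7% of its exon bases.

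In the 2 libraries that stood apart, the distance from the rest of the group ran with the GC content of the transcript for most of the 10 genes. The log2 ratio of DMSO 2 to the mean of DMSO 1 and 3 was lowest for TBK1 (39.3% GC) and BNIP3L (38.9% GC), at -0.90 for each. It was highest for FKBP8 (66.6% GC, 0.48), PINK1 (52.5% GC, 0.45) and SQSTM1 (58% GC, 0.43). In cisplatin 2 the same ratio was -0.83 for TBK1, -0.47 for BNIP3L, 0.51 for FKBP8 and 0.48 for PINK1, but 0.03 for SQSTM1. BNIP3 (51.4% GC) was at -0.34 in DMSO 2 and -0.41 in cisplatin 2, below genes of lower GC content. Over the 10 genes, Spearman's rho between GC content and this ratio was 0.855 in DMSO 2, 0.6 in cisplatin 2 and -0.0182 in Pt-ttpy 2, as a description of 10 genes measured in the same libraries. For TBK1, FKBP8, PINK1, BCL2L13 and FUNDC1, DMSO 2 differed from the other 2 DMSO libraries by more than either drug group differed from the DMSO mean.

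**Figure D3:**
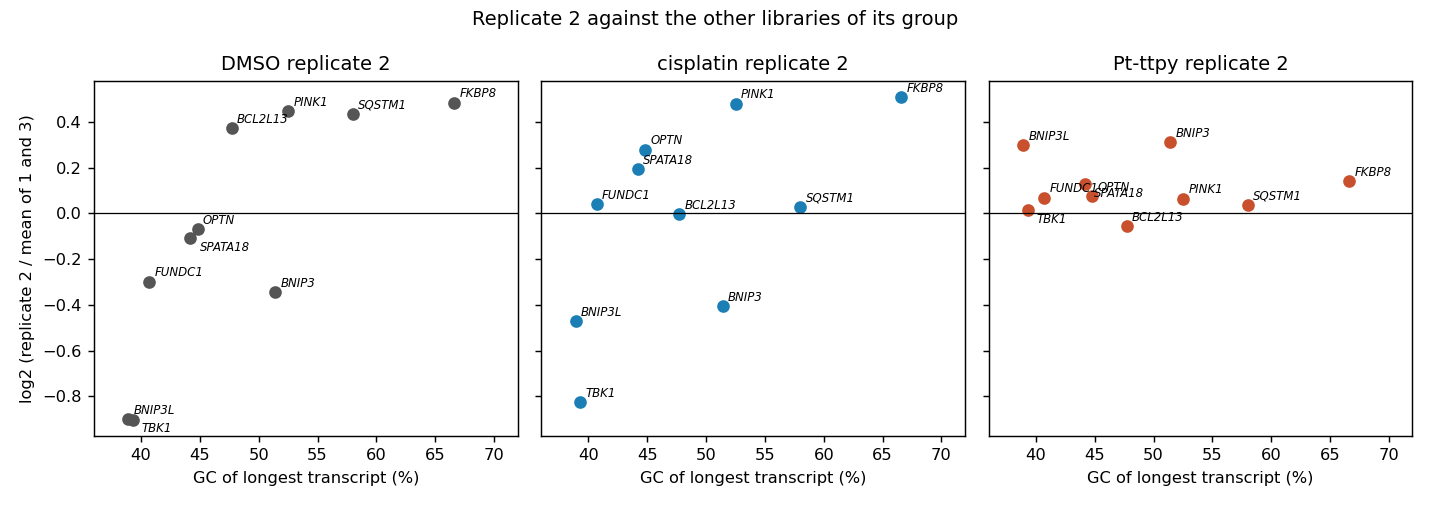
GC content of the longest transcript (horizontal axis, percent) and the log2 ratio of replicate 2 to the mean of replicates 1 and 3 (vertical axis), for the 10 mitophagy genes in each group. The ratio climbs with GC in DMSO 2 (rho 0.855) and cisplatin 2 (0.6), and in Pt-ttpy 2 the points stay between -0.05 and 0.31.

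With 1 library left out at a time, 9 fits were made for each comparison. BNIP3L and SPATA18 after Pt-ttpy and SPATA18 after cisplatin were called in all 9, with adjusted p of at most 0.0264, 0.0196 and 0.00015. BNIP3 after Pt-ttpy and BNIP3L after cisplatin were called in 8 of 9. OPTN after cisplatin and SPATA18 between the drugs were called in 7 of 9, and SQSTM1 after Pt-ttpy in 6 of 9. All genes called after Pt-ttpy against DMSO numbered 267, 185 and 299 without Pt-ttpy 1, 2 and 3, so calls were fewer across all genes in these fits.

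**Figure D4:**
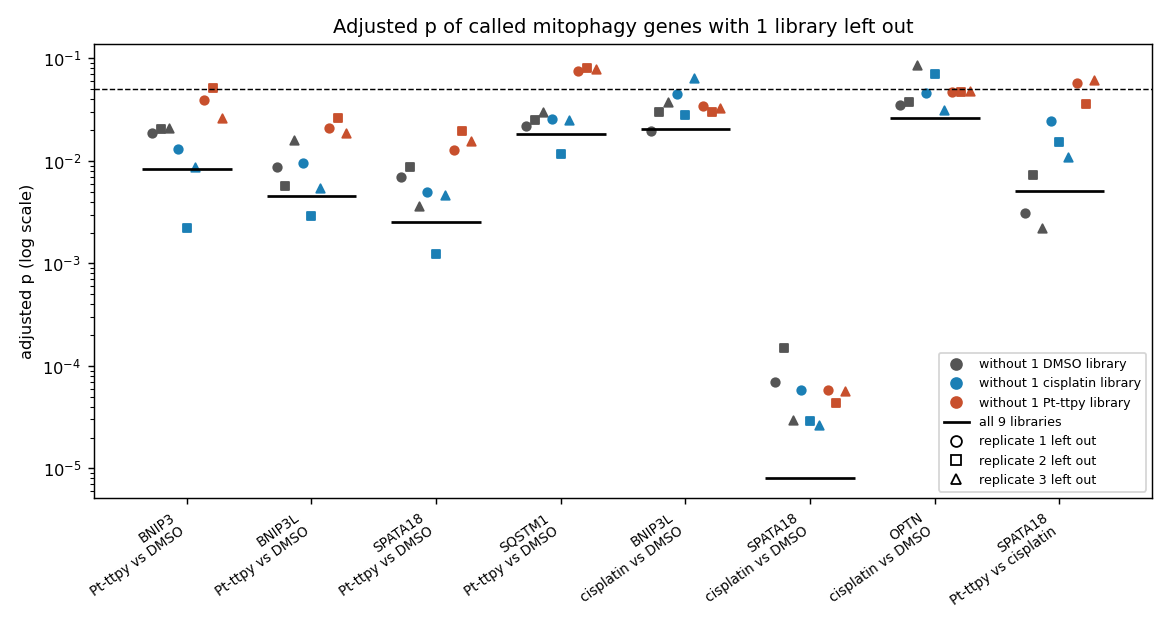
Adjusted p (log axis) of the 8 calls among the mitophagy genes, from all 9 libraries (black line) and with each library left out (points, coloured by the group of the library and shaped by its replicate number). The dashed line is 0.05; SQSTM1 has 3 points above it and OPTN has 2, and SPATA18 after cisplatin stays far below it.

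Levels were compared between genes as CPM per kilobase of exon. With DMSO the order was FKBP8 (73.2 ± 14.9, SD, n = 3), SQSTM1 (28.6 ± 5.19), FUNDC1 (18.2 ± 2.16), BNIP3 (16.8 ± 2.45), BNIP3L (12.6 ± 4.03), BCL2L13 (12.3 ± 1.92), TBK1 (9.21 ± 2.94), PINK1 (9.14 ± 1.73), OPTN (5.34 ± 0.38) and SPATA18 (1.29 ± 0.36). From FUNDC1 to PINK1 each gene overlapped the next in the order, which makes 5 of the 9 neighbouring pairs. Only FKBP8 from SQSTM1, SQSTM1 from FUNDC1, PINK1 from OPTN and OPTN from SPATA18 were apart in all libraries. With Pt-ttpy BNIP3L (38.2 ± 4.72) and BNIP3 (31.7 ± 4.26) stood behind FKBP8 (87.0 ± 5.01) and overlapped each other, ahead of SQSTM1 (19.3 ± 0.70), FUNDC1 (16.2 ± 1.61) and BCL2L13 (13.3 ± 0.46). TBK1 (10.4 ± 0.27), PINK1 (7.11 ± 0.18), OPTN (5.79 ± 0.19) and SPATA18 (3.51 ± 0.20) followed, and BNIP3L with BNIP3 was the 1 pair of neighbours that overlapped. With cisplatin FKBP8 (94.9 ± 20.7) led SQSTM1 (24.5 ± 2.25), BNIP3L (23.0 ± 4.99), BNIP3 (18.5 ± 3.38) and FUNDC1 (17.1 ± 0.30), with overlap between neighbours from SQSTM1 to FUNDC1. BCL2L13 (13.8 ± 0.50) stood apart from both its neighbours, and TBK1 (9.41 ± 2.84), PINK1 (8.98 ± 1.82), SPATA18 (8.91 ± 0.86) and OPTN (7.23 ± 0.85) overlapped in turn. SQSTM1 was thus second in the order with DMSO and cisplatin and the fourth with Pt-ttpy. These values depend on the exon length taken from GENCODE 29, which joins all transcripts of a gene.

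Genes that work around the receptors were counted in 8 lists with 118 genes, of which 116 were tested. After Pt-ttpy 2 of them rose and 16 fell, and after cisplatin 10 rose and 17 fell. Of all genes tested, 5.59% rose and 6.45% fell after Pt-ttpy, and 10.7% rose and 9.78% fell after cisplatin. Between the drugs 0 of the 116 were called by edgeR (0.514% of all genes), 0 by limma-voom and 1, lower, by DESeq2. An unadjusted p under 0.05 was found there for 1 higher and 8 lower. By DESeq2 5 rose and 21 fell after Pt-ttpy, and 13 rose and 19 fell after cisplatin. In the list of the ubiquitin route (the import channel, ubiquitinated substrates, ligases and deubiquitinases), 1 of 22 genes rose and 5 fell after Pt-ttpy, and 2 rose and 6 fell after cisplatin. These make 27.3% and 36.4% of the list, against 12% and 20.5% of all genes. TOMM22, a receptor subunit of the import channel, fell by 0.61 after Pt-ttpy (adjusted p = 0.00631) and by 0.48 after cisplatin (0.00725). MFN2, a mitofusin of the outer membrane that is ubiquitinated in this route, fell by 0.59 (0.011) and 0.57 (0.00605). MUL1, an outer-membrane ubiquitin ligase, fell by 0.57 after Pt-ttpy (0.0208) and by 0.54 after cisplatin (0.0158). TOMM40, the channel pore, fell by 0.53 after Pt-ttpy (0.0239) and by 0.60 after cisplatin (0.00954). The 1 gene of the list that rose after Pt-ttpy, named after its value was seen, was TOMM20 (log2 0.43, adjusted p = 0.034). All changes in these lists are on the log2 scale with p adjusted by edgeR over all genes tested.

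Among other receptors and cargo adaptors, 0 of 15 genes rose and 1 fell after Pt-ttpy, while 4 rose and 0 fell after cisplatin. These make 6.67% and 26.7% of the list, against 12% and 20.5% of all genes. At an unadjusted p under 0.05, 3 were higher and 3 lower after Pt-ttpy, and 4 higher and 1 lower after cisplatin. DESeq2 called 1 higher and 1 lower, and 4 higher and 0 lower, in the same order. Between the drugs 0 of the list were called by edgeR or limma-voom and 1 (lower) by DESeq2, with 0 higher and 2 lower at an unadjusted p under 0.05. TOLLIP, an adaptor with a ubiquitin-binding domain, fell by 0.63 after Pt-ttpy (adjusted p = 0.0194). CALCOCO1, a receptor for autophagy of the endoplasmic reticulum and Golgi, rose by 1.21 after cisplatin (0.0023), NIPSNAP1, which gathers adaptors on damaged mitochondria, by 0.75 (0.0103) and RETREG1, a receptor of the endoplasmic reticulum, by 1.16 (0.0203). After Pt-ttpy the log2 difference of CALCOCO1 was 0.40 (adjusted p = 0.174). Of 15 tested regulators of the receptors, PGAM5, the phosphatase of FUNDC1, and TMEM11, a partner of BNIP3 and BNIP3L, fell after both drugs and 0 rose by edgeR or limma-voom. By DESeq2, and at an unadjusted p under 0.05, 0 were higher after Pt-ttpy and 1 after cisplatin. The edgeR calls make 13.3% of the list after each drug, against 12% and 20.5% of all genes. PGAM5 fell by 0.57 after Pt-ttpy (0.0172) and 0.51 after cisplatin (0.015), and TMEM11 fell by 0.58 (0.0282) and 0.56 (0.0222).

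The ATG8 family, to which receptors and adaptors bind, had 0 of 6 tested genes called by edgeR or limma-voom after either drug, and 0 after Pt-ttpy and 1 (higher) after cisplatin by DESeq2. At an unadjusted p under 0.05, 1 was higher and 1 lower after Pt-ttpy and 1 higher after cisplatin. MAP1LC3B, named with GABARAPL1 after the values were seen, was at 161 ± 10.6 CPM with DMSO, 140 ± 16.7 with cisplatin and 153 ± 2.43 with Pt-ttpy (SD, n = 3). GABARAPL1 had a log2 difference of 0.44 after Pt-ttpy (adjusted p = 0.0856) and 0.46 after cisplatin (0.055). In the initiation and membrane supply list of 22 genes, 1 fell after Pt-ttpy and 3 fell after cisplatin, with 0 rises (1 and 2 higher at an unadjusted p under 0.05). The calls make 4.55% and 13.6% of the list, against 12% and 20.5% of all genes. ATG101, of the ULK1 kinase complex, fell by 0.73 (0.0114) and 0.75 (0.00502), and WDR45B (fell by 0.43, 0.00757) and ATG9A (fell by 0.47, 0.0141) fell after cisplatin. In the conjugation list ATG16L1 was the 1 of 10 genes that fell, by 0.43 after Pt-ttpy (0.0323) and 0.35 after cisplatin (0.0479). With 1 library left out, its call held in 3 of 9 fits after Pt-ttpy and in 0 of 9 after cisplatin. The share called in that list was 10% after each drug, below the 12% and 20.5% of all genes.

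The list of fusion with the lysosome had the largest share of falls after Pt-ttpy, 5 of 15 genes with 0 rises (1 higher by DESeq2), and 4 falls and 1 rise after cisplatin. The calls make 33.3% of the list after each drug, against 12% and 20.5% of all genes. VPS18 and VPS33A, of the HOPS tethering complex, fell after both drugs, as did the membrane fusion protein YKT6. VPS18 fell by 0.92 after Pt-ttpy (0.0043) and 0.90 after cisplatin (0.00141), YKT6 by 0.65 (0.00702) and 0.60 (0.00443), and VPS33A by 0.61 (0.013) and 0.48 (0.0175). Of 12 transcription factors known to act on the mitophagy genes, 1 rose and 1 fell after Pt-ttpy, and 3 rose and 1 fell after cisplatin. These make 16.7% and 33.3% of that list. FOXO3, which drives autophagy genes, rose by 0.69 (0.0118) and 0.63 (0.00853), and TFE3, a lysosomal regulator, fell by 0.54 (0.0201) and 0.47 (0.0223). HIF1A, named after its values were seen, was at 306 ± 54.9 CPM with DMSO, 324 ± 60.7 with cisplatin and 354 ± 24.0 with Pt-ttpy (SD, n = 3; adjusted p = 0.748 and 0.387 against DMSO).

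The counts after Pt-ttpy in these lists moved with each Pt-ttpy library, as those over all genes did. Without Pt-ttpy 1, 2 or 3, 1, 0 and 1 of the 116 genes rose and 3, 2 and 3 fell. TOMM22 and VPS18 were the 2 genes of 18 that were called after Pt-ttpy in all 9 fits without 1 library. After cisplatin 15 of the 27 were called in all 9, but with only the 6 libraries of that comparison 4 rose and 6 fell, and 10 rose and 16 fell when that fit had the replicate block. Without DMSO 2 and cisplatin 2 the counts were 11 higher and 32 lower after Pt-ttpy and 15 higher and 28 lower after cisplatin. Of the genes named from these lists, ATG101, ATG9A, GABARAPL1, HIF1A, MAP1LC3B, NIPSNAP1, PGAM5, RETREG1, TMEM11, VPS33A and WDR45B share exon positions with a neighbouring gene.

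**Figure D5:**
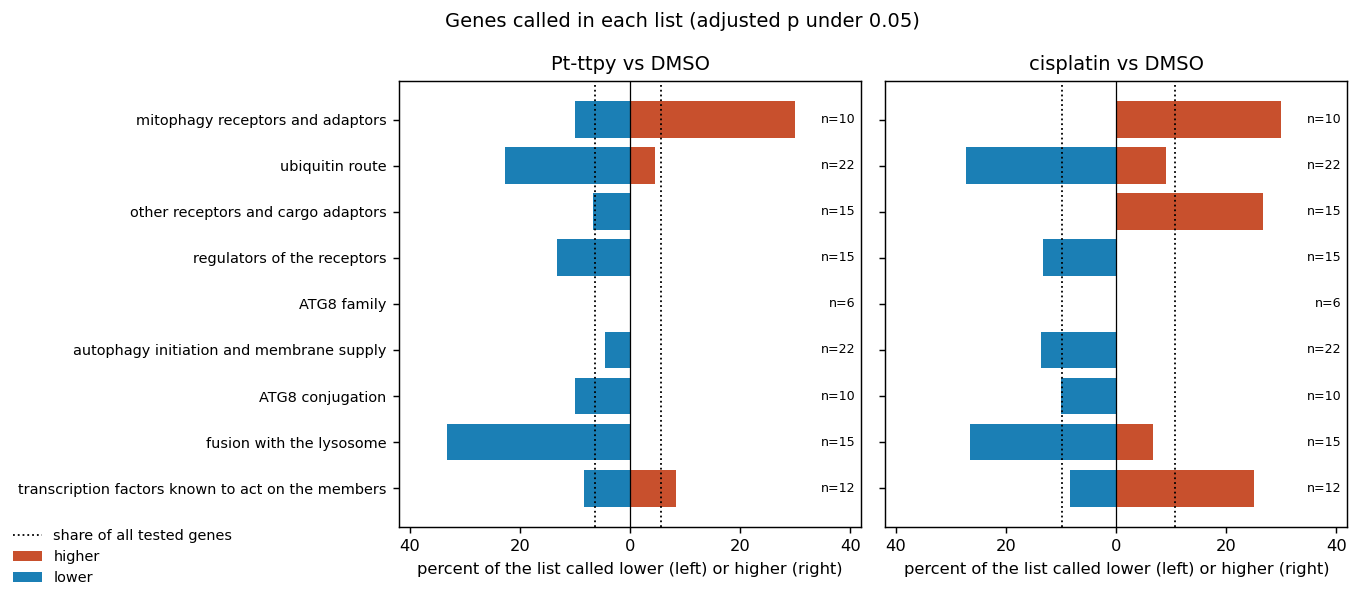
Percent of the tested genes of each list that were called higher (right) or lower (left) after Pt-ttpy and after cisplatin, against DMSO, with n the number tested. Dotted lines give the same shares over all 15558 genes (5.59% and 6.45% for Pt-ttpy, 10.7% and 9.78% for cisplatin); the mitophagy genes show 3 of 10 higher in both panels, and most other lists show more falls than rises.

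For each mitophagy gene called against DMSO, the 3 genes of most similar pattern were found among 10633 genes, by the root mean square difference of centred log2(CPM + 1) profiles over the 9 libraries. Their values chose them, so these are given as a description with no test. Those nearest to BNIP3 were AK4, a mitochondrial adenylate kinase (difference 0.10), PFKFB4, a regulator of glycolysis (0.13), and PLOD2, a collagen lysyl hydroxylase (0.13). Their log2 differences from DMSO were 0.77, 0.87 and 1.00 with Pt-ttpy and -0.01, -0.04 and 0.25 with cisplatin. The nearest to BNIP3L were CALCRL, a receptor subunit for adrenomedullin (0.21), LUM, the matrix protein lumican and 1 of the fibroblast markers above (0.22), and MAP2K6, a kinase of the p38 pathway (0.22). They were lowest in the DMSO group, as BNIP3L was: CALCRL went from 15.0 ± 5.77 to 38.0 ± 0.56 CPM with Pt-ttpy (SD, n = 3).

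The nearest to SPATA18 were IGDCC4 (0.26), EDA2R (0.30) and ACTA2, smooth muscle actin (0.31). EDA2R went from 6.29 ± 1.06 CPM with DMSO to 29.9 ± 3.02 with cisplatin and 13.7 ± 1.38 with Pt-ttpy (SD, n = 3), with a log2 difference of -1.12 between Pt-ttpy and cisplatin. That difference was -1.96 for ACTA2, whose exons overlap those of FAS, and -1.15 for IGDCC4. The nearest to SQSTM1 were TUSC2, HRAS and TPM2 (0.07 each), with log2 differences from DMSO of -0.58, -0.56 and -0.47 with Pt-ttpy. The nearest to OPTN were CHMP3 (0.06), TSPYL1 (0.06) and SUCLG2 (0.07), with log2 differences of 0.40, 0.47 and 0.40 with cisplatin. The profiles share the 9 libraries with their depth and GC trend, and SQSTM1 and OPTN have flat profiles that many genes can match closely. PFKFB4, TUSC2, CHMP3 and TSPYL1 share exon positions with UCN2, HYAL2, RNF103-CHMP3 and DSE.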

How the data were processed

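Total RNA of the 9 libraries was made into mRNA libraries, per the labels' protocols. The authors deposited raw read counts per gene in 1 table, with 0 columns outside these samples. The genome build was GRCh38, per the submitters' processing notes. For the aligner, the counter and strandedness, nothing is given in the sources used here. Of 24542 identifiers, 19974 were Ensembl genes, all in GENCODE 29, 19883 had a symbol, and 4568 were unplaced newGene loci (kept). Library totals were 31.3 to 40.8 M counts. Members and gene lists were chosen with earlier results of these data known.

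Counts were filtered with filterByExpr (minimum count 10), scaled by TMM and fitted with edgeR 4.0.16 (R 4.3.3; robust quasi-likelihood, 1 mean per group, 9 libraries), with Benjamini-Hochberg adjustment over 15558 genes and a threshold of 0.05. The fit was also run on simulated counts that held no GC trend, and the outcome is not reported here. Intervals are 95%. Libraries of a group were not duplicates of each other. Genes named are the 10 members, up to 3 called genes per list and comparison by adjusted p, and the 3 genes of most similar pattern (mean of at least 5 CPM, pseudocount 1) per member called against DMSO. Other genes are named as chosen after their values were seen. Some genes of the lists are counted but not reported here by name.

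The labels number the replicates 1 to 3 in each group. Deviations from group means of same-numbered libraries correlated for DMSO and cisplatin (0.243, 0.399 and 0.224). In the replicate block the numbers were therefore taken to pair libraries across all 3 groups, which is an assumption. The main fit used no pairing. Libraries 1 and 3 also correlated across numbers (0.175 for DMSO 1 with cisplatin 3, 0.176 for DMSO 3 with cisplatin 1). The strongest pair, DMSO 2 with cisplatin 2, holds the 2 libraries with the GC shift. Pairs with Pt-ttpy did not pass this check. Alternatives were upper-quartile factors, library totals, DESeq2 1.42.0 (size factors, Wald test), limma-voom (3.58.1), other filters, a threshold of 0.1, no robust estimation, 6 or 7 libraries, the replicate block and each library left out. GC correction (lowess span 0.3), and 2 combinations with the block, were added after the data were seen.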

Additional observations from a re-analysis of the deposited data

How the results depend on the processing

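Besides the 9 fits without 1 library, the members were recomputed in up to 14 other settings. Of the 10 genes, Pt-ttpy against DMSO called 2 to 4 with 1 library left out (2 without Pt-ttpy 2), and cisplatin against DMSO 2 to 5. Cisplatin called 1 with only the 6 libraries of the contrast (4 with the replicate block added) and 5 without DMSO 2 and cisplatin 2 (7 libraries), where Pt-ttpy called 6. Pt-ttpy against cisplatin called 0 to 2 with 1 library left out (0 without Pt-ttpy 1 or 3), and 2 at an adjusted p under 0.1, with upper-quartile factors, DESeq2's Wald test, no filter, the stricter filter, the replicate block, 7 libraries or GC correction. Over all genes, Pt-ttpy against DMSO called 185 to 3004 genes with 1 library left out, 3313 at 0.1, 2853 with DESeq2, 5189 with 7 libraries, 3575 with GC correction and 3756 with GC correction and the replicate block. Cisplatin called 2012 to 3100 with 1 library left out (2031 without DMSO 3, 2012 without cisplatin 2), 1313 with 6 libraries (3095 with the replicate block), 5054 with GC correction and 5194 with the block added. Pt-ttpy against cisplatin called 18 to 155, and 138, 253, 140, 813, 215 and 229 genes at 0.1, with DESeq2, the replicate block, 7 libraries, GC correction, and GC correction with the block. The cause was not tested.

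Signs turned only for members that were not called. TBK1 was -0.071 (Pt-ttpy against DMSO) and -0.090 (Pt-ttpy against cisplatin) with 7 libraries. With 1 library left out it ran from -0.072 to 0.33 and from -0.090 to 0.32 in these, and from -0.21 to 0.26 for cisplatin against DMSO. PINK1 after cisplatin was 0.065 with upper-quartile factors, 0.078 with library totals, 0.0055 with the stricter filter, 0.041 with GC correction, 0.035 with the replicate block added, and -0.20 to 0.14 with 1 library left out. FUNDC1 after cisplatin was 0.0027 with library totals, and BNIP3 after cisplatin ran from -0.0056 to 0.26 with 1 library left out. FKBP8 between the drugs was 0.063 with 7 libraries, 0.030 with GC correction, 0.032 with the replicate block added, and -0.24 to 0.064 with 1 library left out. Of the 670 values recomputed for single members, 617 kept direction and side of the threshold, 11 lost a call, 21 gained one and 21 changed sign.

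The replicate block gave 2539 genes and 4 members for Pt-ttpy against DMSO, 3712 and 4 for cisplatin against DMSO (FKBP8 added), and 140 and 2 for Pt-ttpy against cisplatin (BNIP3 added, adjusted p = 0.0239). It changed no other call among members. Same-numbered deviations correlated at 0.0228, 0.0115 and -0.0411 between DMSO and Pt-ttpy. Between cisplatin and Pt-ttpy they correlated at 0.105, 0.0355 and 0.0281, and every library except cisplatin 3 correlated best with its own number, a hint from the data and not from the design. Between DMSO and Pt-ttpy this did not hold. Library totals moved the median log2 change of all genes from 0.01 to 0.10 after cisplatin, and upper-quartile factors to 0.09. No setting in which SPATA18 lost its calls against DMSO, or BNIP3L its call after Pt-ttpy, was found among those run. The depth and 3 libraries a group limit the precision, as the printed intervals show.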
